A study of Mus musculus with 18 samples.

Results

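Interferon response genes were followed in Foxp3+ regulatory T cells (Tregs), a CD4+ lineage that holds other immune cells in check, of the diabetes-prone NOD mouse strain. The list names 39 genes, 32 targets of type I interferon and 7 GTPases best known as targets of interferon-gamma. A gene entered with a probe set that carries its symbol alone, and with the brightest such probe set where there were several. By that rule 33 of the 39 genes were measured, out of 19752 genes on the array: 30 of the 32 type I targets and 3 of the 7 GTPases (Iigp1, Irgm1 and Gbp3). Probe sets for Isg15, Ifi47, Igtp, Irgm2 and Gbp2 carry several symbols and were not used, and Ifi44 had no annotated row, so the GTPase class rests on 3 genes.

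The 18 samples were hybridised to whole-transcript Affymetrix mouse arrays and form 6 groups of 3. In the 4 spleen groups the mice, labelled female and 60 days old, carried an eGFP-Cre-ERT2 fusion at Foxp3 and a Rosa26 YFP reporter. Tamoxifen, given in 4 injections, switches the Cre on, so cells that express Foxp3 at that time turn YFP+ and pass the mark to their descendants. Perinate-tagged cells are GFP+YFP+ after tamoxifen between days 0 and 10, and adult-tagged cells are GFP+YFP+ after tamoxifen between days 35 and 45. The untagged cells of perinate-treated and of adult-treated mice are the GFP+YFP- Tregs of those treatments, a bulk without the mark. The tag dates Foxp3 expression and not the origin of a cell, so tagged and untagged cells need not differ in time of origin. Thymic GFP+ Tregs came from male NOD mice, 4 days old (perinate thymus) or 5 weeks old (adult thymus), and a different sorter. Tissue, sex, sorter and age therefore cannot be told apart between spleen and thymus. Whether a replicate is 1 animal, a pool or a repeat is not in the labels, so the p-values measure the spread between these samples.

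Type I interferons bind the receptor of Ifnar1 and Ifnar2, whose kinases Jak1 and Tyk2 activate Stat2. Together with Irf9 it enters a complex that binds the interferon-stimulated response element in the promoters of its targets. Interferon-gamma binds Ifngr1 and Ifngr2 and works mainly at a shorter element called GAS. The targets restrain viruses and other invaders inside the cell, and the immunity-related and guanylate-binding GTPases of the mouse act on vacuoles of intracellular parasites. The classes overlap, since the GTPases also respond to type I interferon and many type I targets respond to interferon-gamma.

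The promoter letters of 6 members are shown first. They were chosen from members discussed below because they hold letters of the element after which the response is named. Rsad2, Oas3 and Irgm1 were called between the tagged groups with all arrays, while Ifit1, Ifit3 and Gbp3 were not. The letters GAAA, a gap of any 2 bases and GAAA again, or TTTC, the same gap and TTTC on the other strand, were sought as the core of the response element, and TTCNNNGAA, which reads the same on both strands, as the core of GAS. The windows ran from 250 bases before to 50 bases after the transcription start, in the RefSeq promoter table for build GRCm38.p6. A window was on hand for 24 of the 33 measured members. The first motif occurred in 11 of these 24 (45.8%), against 3.99% of the 27025 genes of the table, and in 3.44% of its 32851 windows. GAS letters occurred in 5 of the 24 members (20.8%), against 9.55% of genes, and in 8.30% of windows. By class, the first motif was in 9 of 22 type I members and 2 of 2 GTPases. GAS letters were in 5 of 22 type I members and 0 of 2 GTPases. Isg20, which had the lowest adjusted p of the members between the tagged groups, held GAS letters but not the first motif. Motifs were counted separately where they overlapped, and a match is a run of letters, not a site shown to be bound. The 160 bases just upstream of the start are printed 5′ to 3′ on the gene's strand, with matches to the first motif, on either strand, in capitals.
Ifit1: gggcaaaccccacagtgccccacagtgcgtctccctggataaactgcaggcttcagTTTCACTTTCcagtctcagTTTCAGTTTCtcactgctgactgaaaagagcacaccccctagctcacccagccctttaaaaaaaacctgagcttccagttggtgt
Ifit3: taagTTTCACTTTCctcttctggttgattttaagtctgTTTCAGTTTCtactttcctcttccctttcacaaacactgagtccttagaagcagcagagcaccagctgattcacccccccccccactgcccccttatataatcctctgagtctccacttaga
Rsad2: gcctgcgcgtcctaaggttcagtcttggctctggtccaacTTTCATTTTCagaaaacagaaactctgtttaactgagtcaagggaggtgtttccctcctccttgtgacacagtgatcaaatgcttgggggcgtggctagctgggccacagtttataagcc
Oas3: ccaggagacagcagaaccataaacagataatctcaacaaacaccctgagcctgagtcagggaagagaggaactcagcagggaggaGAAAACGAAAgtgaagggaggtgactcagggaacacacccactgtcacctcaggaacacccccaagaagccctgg
Irgm1: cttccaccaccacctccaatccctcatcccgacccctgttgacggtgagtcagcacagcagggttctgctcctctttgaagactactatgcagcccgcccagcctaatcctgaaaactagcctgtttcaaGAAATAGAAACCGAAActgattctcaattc
Gbp3: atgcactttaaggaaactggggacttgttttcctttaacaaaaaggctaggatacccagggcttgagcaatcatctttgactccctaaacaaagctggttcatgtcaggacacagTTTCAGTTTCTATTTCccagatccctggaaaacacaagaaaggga
These stretches lie at chr19:34640729-34640888 (+ strand), chr19:34583369-34583528 (+ strand) and chr12:26456453-26456612 (- strand) for Ifit1, Ifit3 and Rsad2. For Oas3, Irgm1 and Gbp3 they lie at chr5:120777660-120777819 (- strand), chr11:48871421-48871580 (- strand) and chr3:142559884-142560043 (+ strand). Counting the base before the start as -1, the motifs begin at -104 and -85 in Ifit1, at -156 and -122 in Ifit3, at -120 in Rsad2 and at -75 in Oas3. In the GTPases they lie closer to the start and overlap, at -30 and -24 in Irgm1 and at -45 and -39 in Gbp3.

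All values below are log2 intensities unless stated, and differences are log2 differences with their standard error (SE). One array went against its label in genes that mark sex. On perinate-tagged replicate 2, whose label gives a female mouse, Y-linked Eif2s3y read 9.79, while the remaining 11 spleen arrays gave 3.95 to 4.90. Xist, which females express, read 8.38 there and 11.86 to 12.41 on those 11. On the male thymic arrays Eif2s3y read 9.73 to 10.04 and Xist 5.70 to 6.30. The array thus had Eif2s3y at the male level and Xist between the 2 levels, for a reason that was not tested. The spleen fit draws its spread from this array too, also in the 2 comparisons that hold no perinate-tagged cells. For those, fits of only the groups compared are given as well. Counts of members in comparisons that include this array are given with and without it. That it differs from replicates 4 and 5 in the members was known beforehand, so leaving it out raises their counts by choice. Counts and p-values without it are thus no separate support. Transcripts absent by sex read 3.95 to 6.30, which serves as the background level, and no member had all its group means there. The Treg markers were well above it in every group, Foxp3 between 11.88 and 12.40 on all 18 arrays, while Il2ra was lower in perinate-tagged than in adult-tagged cells (-0.39 ± 0.12, adjusted p = 0.0416, and -0.47 ± 0.13 without replicate 2). All 33 members passed the filter on dim genes in each comparison, a mean of at least 7.05, the median of the table, in 1 or more groups.

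Across all members, the mean level was 8.77, 10.37 and 10.33 on perinate-tagged replicates 2, 4 and 5, against 8.88, 9.12 and 9.00 on the adult-tagged arrays. Replicates 4 and 5 stood above all adult-tagged arrays, and replicate 2 below them. The untagged arrays had 9.08, 9.20 and 9.19 in perinate-treated mice and 9.00, 9.02 and 9.25 in adult-treated mice. Thymic arrays had 9.44, 9.42 and 9.46 in perinates and 9.59, 9.24 and 9.55 in adults. By group mean the order was perinate-tagged (9.82 ± 0.91, SD, n = 3 here and for each group), adult thymus (9.46 ± 0.19), perinate thymus (9.44 ± 0.02), untagged cells of perinate-treated (9.16 ± 0.06) and of adult-treated mice (9.09 ± 0.13), and adult-tagged cells (9.00 ± 0.12). Neighbours in this order lay within the spread of at least 1 of their groups, except perinate thymus against the untagged cells of perinate-treated mice.

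**Figure D1:**
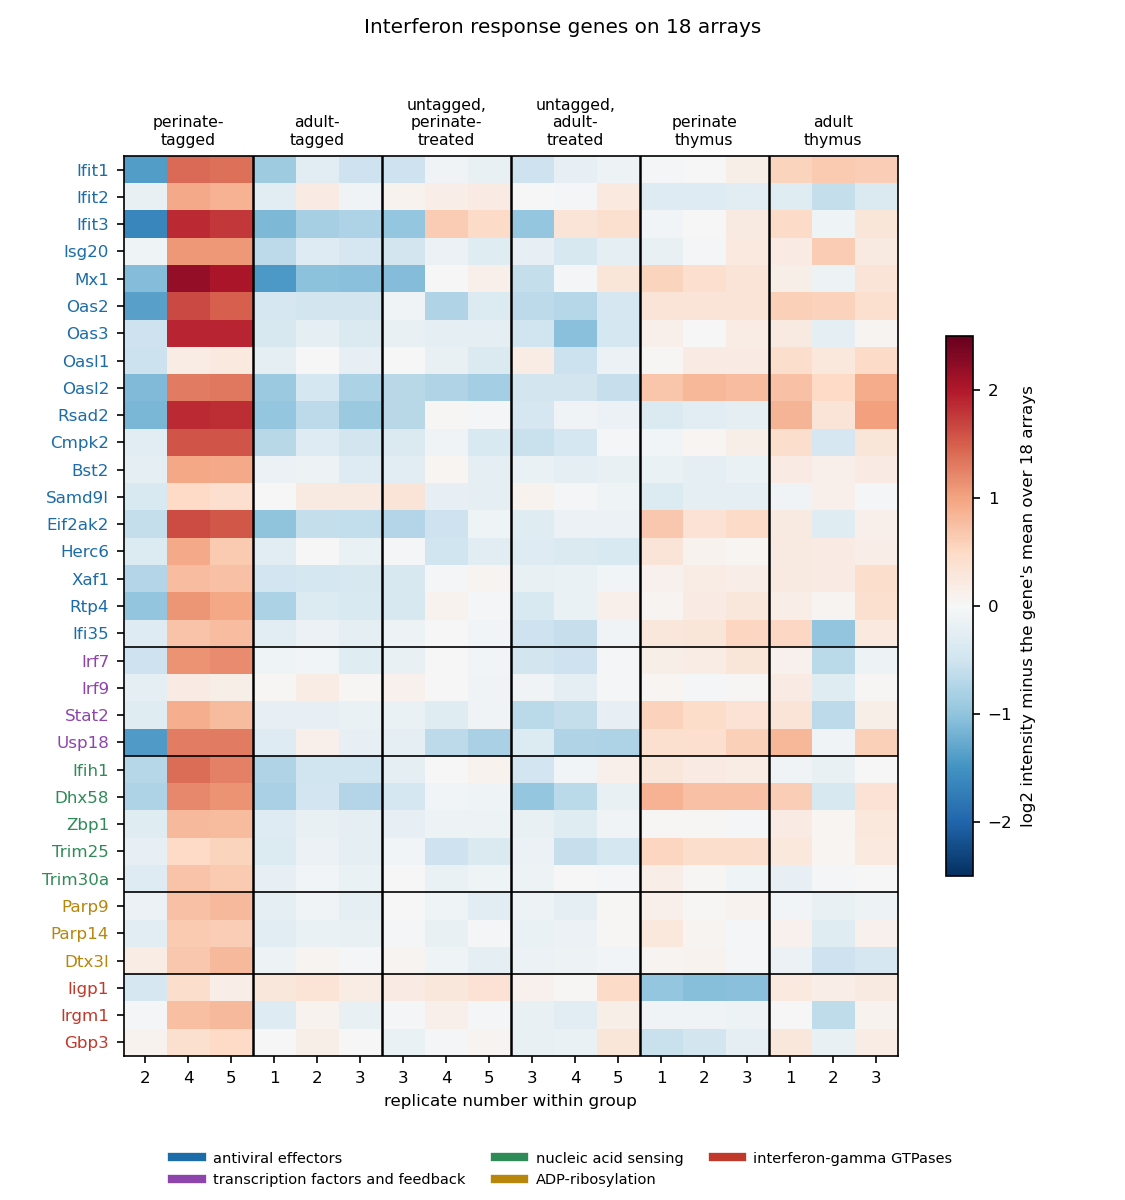
Each column is an array, numbered by replicate, and each row a measured member, coloured by role, with its log2 intensity minus its mean over the 18 arrays. Perinate-tagged replicates 4 and 5 are red for most type I targets while replicate 2 is blue, and Iigp1 is lowest in perinate thymus.

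The first question was whether Tregs tagged around birth differ in these genes from Tregs tagged in the adult, in the same organ at the same age. Perinate-tagged cells had more transcript of 13 of the 33 members and less of 0, beside 16.0% of the 10350 genes tested that were higher and 3.50% that were lower. The 13 were 7 antiviral effectors (Mx1, Rsad2, Eif2ak2, Cmpk2, Oas3, Isg20 and Bst2), 3 sensors of foreign nucleic acid (Ifih1, Dhx58 and Zbp1), 2 genes of ADP-ribosylation (Parp9 and Dtx3l) and the GTPase Irgm1. The median difference was 0.68 over the 33 members and 0.12 over all genes tested. Without perinate-tagged replicate 2, left out with its low values known, the count was 28, which includes all 13, beside 15.3% of all genes. The median was then 1.16. Leaving out perinate-tagged replicate 4, perinate-tagged replicate 5 or adult-tagged replicate 1 left 1 member each, beside 9.04%, 8.32% and 7.60% of all genes higher, so 1 of 33 lay below the share of all genes. Without adult-tagged replicate 3 the count was 3, beside 9.41%, and without adult-tagged replicate 2 it was 6, beside 15.8%. In cells sorted in bulk, fewer cells of a type and less RNA per cell cannot be told apart. The groups did not overlap for 4 members (Cmpk2, Dtx3l, Eif2ak2 and Isg20), all higher, beside 33.2% of all genes higher and 12.7% lower. Quantile normalization called 5 members, with 1064 of all genes higher and 894 lower against 1658 and 362 without it, and a fit with each array's interquartile range as a covariate called 0, beside 2.95% of all genes higher. The median of all genes was -0.04 with quantile normalization and 0.21 with median centring, and that of the members 0.50 and 0.77, so the members' median was above that of all genes under each.

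In each of the 33 members replicate 2 was the lowest of the 3 perinate-tagged arrays, which was so for 41.0% of all genes tested. It lay below every adult-tagged array in 19 members, within their range in 10, and above them in 4 (Cmpk2, Dtx3l, Eif2ak2 and Isg20). This was not counted over all genes. Against adult-tagged replicate 2 alone it was higher in 4 of 33 members and in 53.2% of all genes. Replicates 4 and 5 differed from each other by a median of 0.04 over the members, while replicate 4 exceeded replicate 2 by a median of 1.21. The median SD within the group was 0.68 over the members in perinate-tagged cells, against 0.13 in adult-tagged cells. For all genes these were 0.12 in perinate-tagged cells and 0.13 in adult-tagged cells.

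Among the effectors, Mx1, a dynamin-like GTPase that traps influenza virus components, had 6.36, 9.64 and 9.49 on perinate-tagged replicates 2, 4 and 5, against 6.02, 6.43 and 6.41 on the adult-tagged arrays. Its difference was 2.21 ± 0.62 (4.64-fold, adjusted p = 0.0224), and 3.28 ± 0.32 without replicate 2 (9.71-fold). Replicate 2 lay among the adult-tagged arrays, so the groups overlap, and the untagged cells had 6.37, 7.45 and 7.57 in perinate-treated and 6.85, 7.41 and 7.76 in adult-treated mice. Rsad2, viperin, which makes a nucleotide that stops viral RNA synthesis, had 6.59, 9.58 and 9.57 in perinate-tagged and 6.76, 7.07 and 6.79 in adult-tagged cells. It differed by 1.70 ± 0.55 (adjusted p = 0.0416), and by 2.70 ± 0.20 without replicate 2, which was here the lowest of the 6 tagged arrays. The untagged cells had Rsad2 at 7.03, 7.75 and 7.70 in perinate-treated and at 7.31, 7.63 and 7.58 in adult-treated mice. Cmpk2, a mitochondrial nucleotide kinase encoded beside Rsad2, had 7.90, 9.73 and 9.75 in perinate-tagged and 7.47, 7.83 and 7.71 in adult-tagged cells. Here all perinate-tagged arrays were above all adult-tagged ones, with a difference of 1.45 ± 0.35 (adjusted p = 0.011), or 2.07 ± 0.17 without replicate 2. Its values in untagged cells were 7.80, 8.08 and 7.78 in perinate-treated and 7.60, 7.73 and 8.13 in adult-treated mice.

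Eif2ak2 (PKR), a kinase that halts translation on double-stranded RNA, had 6.73, 8.95 and 8.88 in perinate-tagged and 6.31, 6.72 and 6.70 in adult-tagged cells. The groups just failed to overlap, replicate 2 lying next to the highest adult-tagged array, and differed by 1.61 ± 0.41 (adjusted p = 0.0143), or 2.34 ± 0.18 without it. Untagged cells had 6.59, 6.80 and 7.21 in perinate-treated and 7.01, 7.16 and 7.17 in adult-treated mice. Isg20, an exonuclease that degrades viral RNA, had the lowest adjusted p of the members, with 10.21, 11.41 and 11.40 in perinate-tagged and 9.66, 10.01 and 9.90 in adult-tagged cells. All perinate-tagged arrays were higher, by 1.15 ± 0.24 on average (2.21-fold, adjusted p = 0.00484), and by 1.55 ± 0.15 without replicate 2. In untagged cells Isg20 had 9.87, 10.18 and 10.01 in perinate-treated and 10.12, 9.92 and 10.09 in adult-treated mice. Oas3, which makes the oligoadenylates that switch on RNase L, had 7.45, 9.89 and 9.88 in perinate-tagged and 7.58, 7.73 and 7.61 in adult-tagged cells. Replicate 2 was below all adult-tagged arrays, and the mean differed by 1.44 ± 0.45 (adjusted p = 0.0359), or 2.25 ± 0.17 without it. In untagged cells Oas3 had 7.79, 7.74 and 7.74 in perinate-treated and 7.48, 6.94 and 7.54 in adult-treated mice.

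Bst2 (tetherin), which holds budding virus at the cell surface, had 8.49, 9.68 and 9.65 in perinate-tagged and 8.56, 8.59 and 8.38 in adult-tagged cells. It differed by 0.76 ± 0.24 (adjusted p = 0.035), or 1.16 ± 0.14 without replicate 2, which lay in the adult-tagged range, and untagged cells had 8.43, 8.77 and 8.47 in perinate-treated and 8.55, 8.47 and 8.52 in adult-treated mice. The 11 effectors that did not pass include the RNA-binding Ifit proteins. Ifit1 had 8.78, 11.60 and 11.55 in perinate-tagged and 9.29, 9.92 and 9.66 in adult-tagged cells, a difference of 1.02 ± 0.51 (adjusted p = 0.17). Without replicate 2 its difference was 1.95 ± 0.19 (adjusted p = 2.04e-05), and the untagged cells had 9.67, 10.10 and 10.01 in perinate-treated and 9.67, 9.98 and 10.06 in adult-treated mice. Ifit3 varied most of all members, at 8.16, 11.66 and 11.56 in perinate-tagged cells, an SD of 1.99, against 8.66, 8.95 and 9.02 in adult-tagged cells. Its difference was 1.58 ± 0.70 (adjusted p = 0.12) with all arrays and 2.73 ± 0.43 without replicate 2.

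Samd9l, a growth-restraining antiviral gene and the brightest effector over all arrays, differed by 0.03 ± 0.21 (adjusted p = 0.93) and was not called without replicate 2 either. It had 10.10, 10.97 and 10.88 in perinate-tagged and 10.47, 10.69 and 10.70 in adult-tagged cells. In untagged cells it had 10.78, 10.27 and 10.22 in perinate-treated and 10.55, 10.42 and 10.36 in adult-treated mice. Without replicate 2, left out with its low values known, the effectors called were 16 of 18, all but Oasl1 and Samd9l, beside 15.3% of all genes higher. The differences of Oas2 and Oasl2 were then 2.02 ± 0.18 and 2.02 ± 0.15.

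Of the 4 transcription factors and feedback genes 0 were called with all arrays and 3 without replicate 2, beside 16.0% and 15.3% of all genes higher. Irf7, which drives the amplification of type I interferon, had 9.34, 10.98 and 11.04 in perinate-tagged and 9.74, 9.78 and 9.55 in adult-tagged cells. It differed by 0.76 ± 0.32 (adjusted p = 0.11), and by 1.32 ± 0.16 (adjusted p = 9.42e-05) without replicate 2, and had 9.68, 9.86 and 9.80 in untagged cells of perinate-treated and 9.39, 9.35 and 9.83 of adult-treated mice. Usp18, which removes Isg15 from proteins and damps the type I receptor, had 8.58, 11.26 and 11.29 in perinate-tagged and 9.67, 10.11 and 9.79 in adult-tagged cells. Replicate 2 lay 1.53 below adult-tagged replicate 2, the largest such gap of any member, and the mean difference was 0.52 ± 0.50 (adjusted p = 0.48), or 1.42 ± 0.19 without it. Untagged cells had Usp18 at 9.76, 9.33 and 9.18 in perinate-treated and at 9.65, 9.23 and 9.22 in adult-treated mice. Stat2 had 9.17, 10.38 and 10.25 in perinate-tagged and 9.26, 9.25 and 9.29 in adult-tagged cells, and a difference of 0.66 ± 0.24 (adjusted p = 0.062), or 1.05 ± 0.15 without replicate 2. Its untagged values were 9.29, 9.15 and 9.37 in perinate-treated and 8.79, 8.87 and 9.25 in adult-treated mice. Irf9, the DNA-binding partner of the complex, was called in neither fit, at 10.34, 10.79 and 10.72 in perinate-tagged and 10.60, 10.76 and 10.60 in adult-tagged cells. Its untagged values were 10.67, 10.59 and 10.49 in perinate-treated and 10.50, 10.33 and 10.55 in adult-treated mice.

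The sensors had 3 of 5 members called, beside 16.0% of all genes higher. Ifih1 (MDA5), which detects long double-stranded RNA, had 8.46, 10.56 and 10.44 in perinate-tagged and 8.42, 8.67 and 8.68 in adult-tagged cells, a difference of 1.23 ± 0.39 (adjusted p = 0.0374). Its untagged values were 8.92, 9.16 and 9.25 in perinate-treated and 8.70, 9.10 and 9.29 in adult-treated mice. Dhx58 (LGP2), a helicase that tunes such sensors, had 8.00, 9.96 and 9.88 in perinate-tagged and 7.95, 8.28 and 8.04 in adult-tagged cells, and differed by 1.19 ± 0.38 (adjusted p = 0.0394). Replicate 2 fell within the adult-tagged range in both genes, and without it Ifih1 differed by 1.91 ± 0.18 and Dhx58 by 1.83 ± 0.20. Dhx58 had 8.34, 8.70 and 8.67 in untagged cells of perinate-treated and 7.79, 8.10 and 8.58 of adult-treated mice. Zbp1, a sensor of Z-form nucleic acid that can start cell death, had 10.16, 11.27 and 11.25 in perinate-tagged and 10.14, 10.28 and 10.22 in adult-tagged cells (0.68 ± 0.22, adjusted p = 0.0424, and 1.05 ± 0.12 without replicate 2). Untagged cells had Zbp1 at 10.26, 10.33 and 10.34 in perinate-treated and at 10.27, 10.16 and 10.37 in adult-treated mice. Trim30a, a ubiquitin-ligase-family protein of the mouse and the brightest sensing gene, had 11.27, 12.30 and 12.23 in perinate-tagged and 11.38, 11.51 and 11.41 in adult-tagged cells, and passed once replicate 2 was left out (0.83 ± 0.12). It was nearly flat in untagged cells, at 11.56, 11.42 and 11.47 in perinate-treated and 11.46, 11.59 and 11.56 in adult-treated mice.

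Parp9 and Dtx3l form a complex that modifies ubiquitin and histones. Dtx3l had 10.97, 11.46 and 11.59 in perinate-tagged and 10.66, 10.87 and 10.74 in adult-tagged cells, with no overlap and a difference of 0.59 ± 0.15 (adjusted p = 0.0154), or 0.77 ± 0.14 without replicate 2. In untagged cells it had 10.86, 10.69 and 10.55 in perinate-treated and 10.64, 10.65 and 10.72 in adult-treated mice. Parp9 had 9.60, 10.49 and 10.57 in perinate-tagged and 9.53, 9.67 and 9.52 in adult-tagged cells (0.65 ± 0.20, adjusted p = 0.035, and 0.96 ± 0.14 without replicate 2). Replicate 2 fell within the adult-tagged range, and untagged cells had 9.75, 9.66 and 9.50 in perinate-treated and 9.63, 9.53 and 9.79 in adult-treated mice.

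The 3 GTPases had unequal differences, and their median difference of 0.29 was less than the 0.73 of the type I targets, a contrast that was not tested. Irgm1, which guards vacuole membranes and autophagy, had 10.21, 10.98 and 11.03 in perinate-tagged and 9.90, 10.31 and 10.04 in adult-tagged cells. It differed by 0.66 ± 0.20 (adjusted p = 0.0303), or 0.93 ± 0.16 without replicate 2, with that array inside the adult-tagged range, and had 10.18, 10.36 and 10.20 in untagged cells of perinate-treated and 10.04, 9.95 and 10.37 of adult-treated mice. Gbp3, a guanylate-binding protein, had 9.03, 9.33 and 9.45 in perinate-tagged and 8.92, 9.10 and 8.93 in adult-tagged cells, a difference of 0.29 ± 0.15 (adjusted p = 0.19), or 0.41 ± 0.16 without replicate 2 (adjusted p = 0.090). Untagged cells had Gbp3 at 8.78, 8.91 and 9.01 in perinate-treated and at 8.76, 8.78 and 9.25 in adult-treated mice. Iigp1, which disrupts parasite vacuoles, had 7.60, 8.45 and 8.18 in perinate-tagged and 8.30, 8.36 and 8.20 in adult-tagged cells. Its difference was -0.21 ± 0.18 (adjusted p = 0.43), and 0.02 ± 0.16 without replicate 2. Replicate 4 lay just above the adult-tagged range and replicate 5 just below it. Untagged cells had Iigp1 at 8.22, 8.30 and 8.38 in perinate-treated and at 8.13, 8.05 and 8.50 in adult-treated mice.

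**Figure D2:**
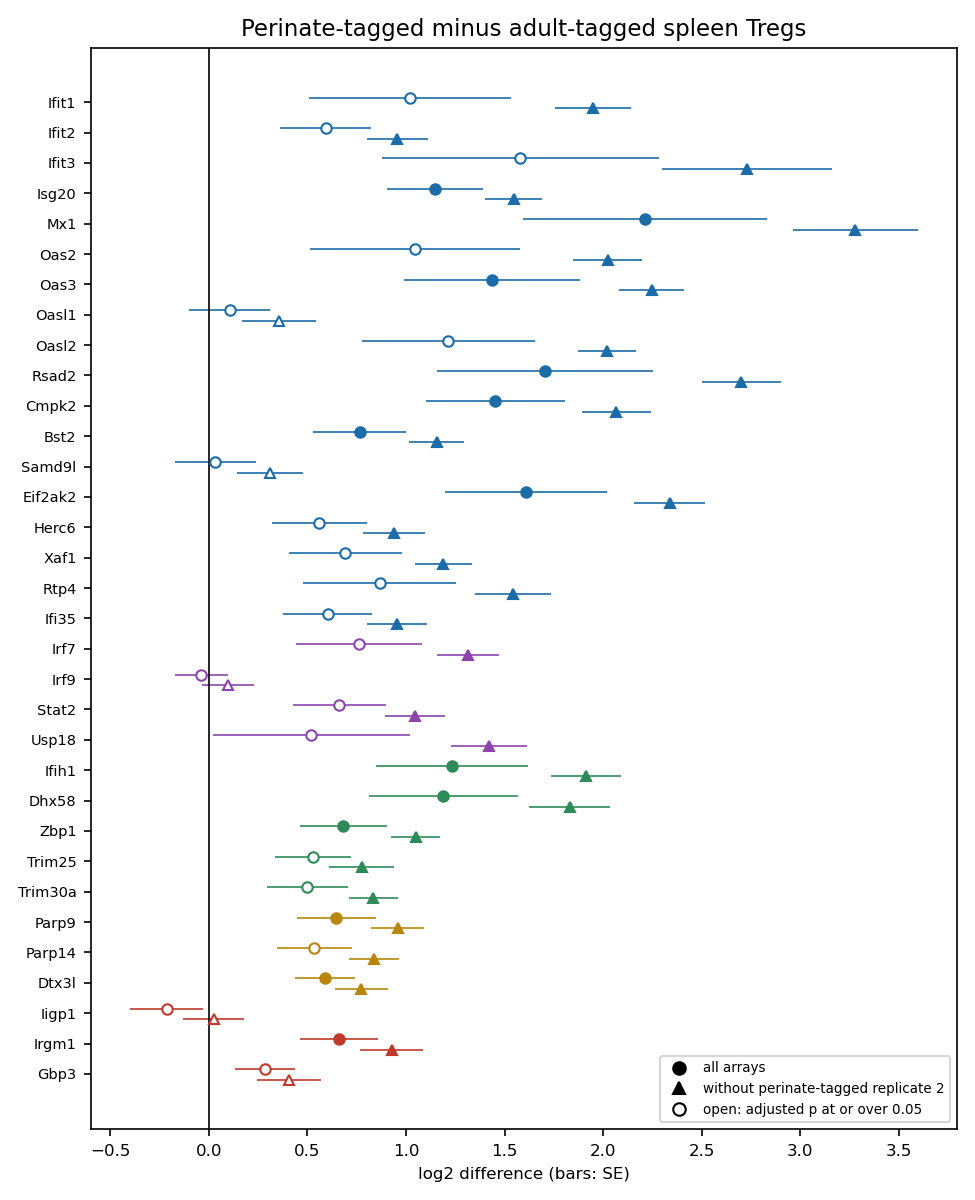
Points give the perinate-tagged minus adult-tagged log2 difference of each member with its SE, as circles for all arrays and triangles without perinate-tagged replicate 2, filled where adjusted p was under 0.05. Colours mark the roles, from the top effectors (blue), transcription factors and feedback (purple), sensing (green), ADP-ribosylation (ochre) and GTPases (red). The filled points number 13 with all arrays and 28 without that replicate, and all lie right of 0.

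Upstream of these targets, genes of the pathway outside the list were read beside them. Of the 8 interferon genes measured 3 passed the filter (Ifng, Ifna5 and Ifnl2), and Ifnb1 and Ifna4 stayed within the background level on all 18 arrays. Ifng, the gene of interferon-gamma, was the one called in the tagged comparison. It had 7.92, 7.90 and 8.27 in perinate-tagged and 6.96, 7.04 and 6.96 in adult-tagged cells, and rose by 1.04 ± 0.25 (adjusted p = 0.00999), with an adjusted p of 0.0183 without replicate 2. Replicate 2 was not low for Ifng, unlike for the members, and untagged cells had 7.20, 8.26 and 7.76 in perinate-treated and 7.27, 7.56 and 8.24 in adult-treated mice. Of 19 receptors, kinases and upstream factors tested 4 were higher and 0 lower, beside 16.0% of all genes higher and 3.50% lower. The median was 0.15 over the list, near the 0.12 over all genes. The 4 were Irf5 (0.67 ± 0.23, adjusted p = 0.0485), the RNA sensor Ddx58 (0.65 ± 0.21, adjusted p = 0.0407), Irf8 (0.58 ± 0.18, adjusted p = 0.0319) and the adaptor Myd88 (0.45 ± 0.13, adjusted p = 0.0256). Without replicate 2 the count was 1, Ddx58 (0.95 ± 0.16), beside 15.3% of all genes, so 1 of 19 lay below that share.

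Of 41 other interferon-induced genes tested 11 were higher and 0 lower, beside 16.0% of all genes higher and 3.50% lower. Mx2, among the 41, passed the filter through perinate-tagged cells alone, and the 11 do not include it. Without replicate 2 both Mx2 and Tdrd7 passed only in that way, so that their direction was fixed. Of the remaining 40 genes 24 were then higher, beside 15.3% of all genes. Ddx58 stands in both lists. The chemokine Cxcl10, best known as a target of interferon-gamma, led with 8.93, 9.77 and 10.02 in perinate-tagged and 7.40, 7.31 and 6.93 in adult-tagged cells (2.36 ± 0.65, adjusted p = 0.0211, and 2.68 ± 0.73 without replicate 2). All perinate-tagged arrays lay above all adult-tagged ones, replicate 2 included. Next by size came Ifitm3, which blocks virus entry (1.23 ± 0.23, adjusted p = 0.00211), and Ube2l6, the conjugating enzyme for Isg15 (1.15 ± 0.28, adjusted p = 0.0102). Trafd1 (1.14 ± 0.21), Epsti1 (1.08 ± 0.18) and Daxx (1.07 ± 0.27) followed. The groups did not overlap for Ifitm3, Trafd1, Epsti1 and Daxx, which was so for 33.2% of all genes in that direction.

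**Figure D3:**
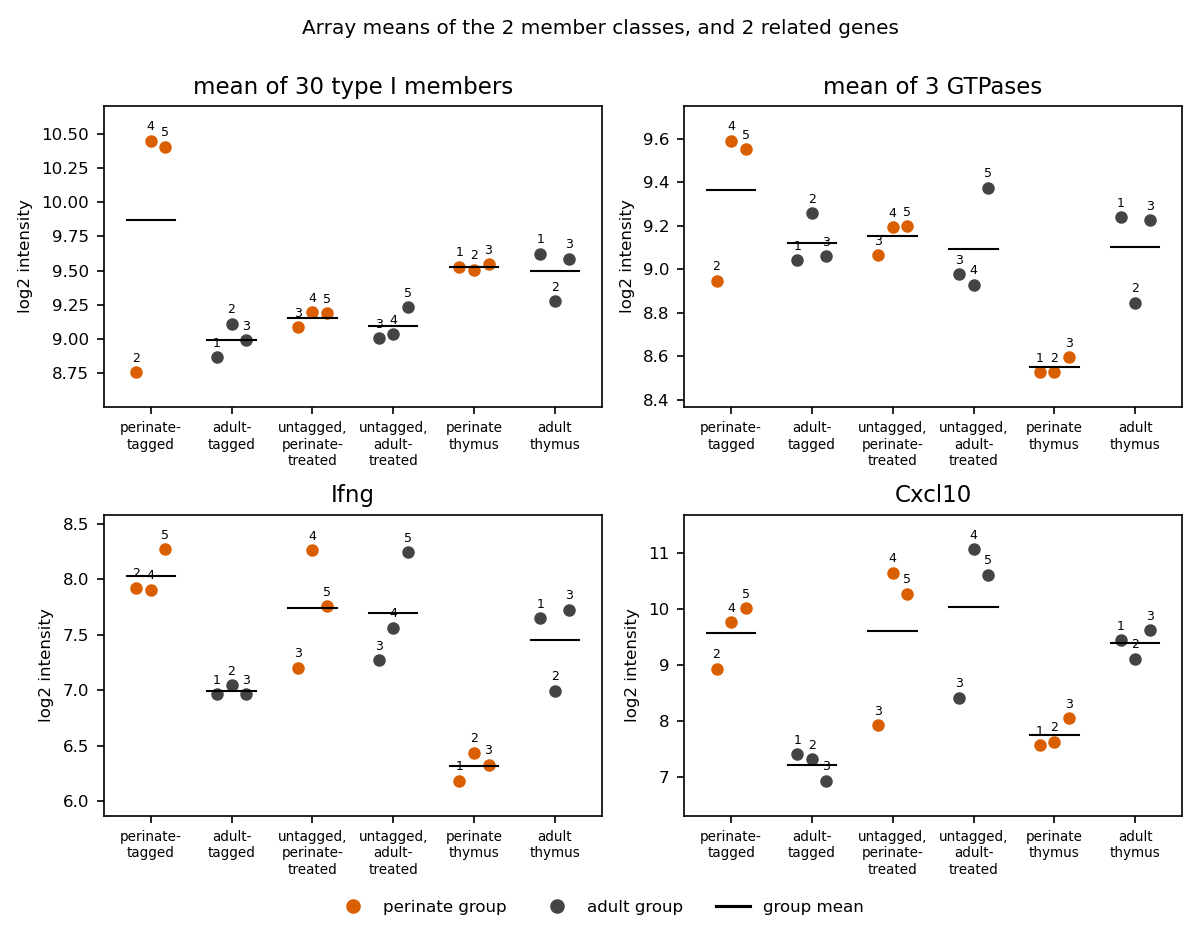
Dots are arrays, numbered by replicate, in log2 intensity, with a line at each group mean, for the mean of the 30 type I members, the mean of the 3 GTPases, Ifng and Cxcl10. Perinate-tagged replicate 2 is the lowest of all 18 arrays for the type I mean (8.76) but lies near replicate 4 for Ifng (7.92 and 7.90).

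Markers of other cell types moved in the same comparison. Of 9 measured myeloid markers 2 passed the filter in more than 1 spleen group, Cd74 and Cd68, and both were higher in perinate-tagged cells, Cd74 by 1.34 ± 0.30 and Cd68 by 0.54 ± 0.16. Without replicate 2 both were called as well. Of all genes 16.0% were higher with all arrays and 15.3% without that array. Fcer1g passed through the perinate-tagged group alone, as did Mpeg1 and Tyrobp once replicate 2 was left out, so the filter fixed their direction and they are not counted. The summed linear level of the 9 was 1168 to 1393 on perinate-tagged arrays and 822 to 847 on adult-tagged arrays. Lyz2 and Csf1r lay at 6.04 to 6.48 on perinate-tagged and 6.10 to 6.37 on adult-tagged arrays, at or near background. Cd14 lay at 5.55 to 5.92 and 5.77 to 6.13. On perinate-tagged replicates 4 and 5 alone Mpeg1 averaged 7.34, against 5.71 on adult-tagged arrays. Fcer1g averaged 7.39 against 6.53 and Tyrobp 7.10 against 6.84, as values with no test. The B-cell list had 1 gene higher, Cd79b (0.66 ± 0.14), and summed to 920 to 1087 on perinate-tagged and 712 to 791 on adult-tagged arrays, with Cd79a and Ms4a1 at 4.94 to 5.67 on perinate-tagged and 5.09 to 5.62 on adult-tagged arrays, within the background level. Plasmacytoid dendritic cell markers, of the cells that make most type I interferon, summed to 1185 to 1303 on perinate-tagged and 1337 to 1492 on adult-tagged arrays, with Siglech at 6.27 to 6.74 on all 6. The part of these markers in the members' differences was not tested.

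Against the untagged Tregs of the same treatment, perinate-tagged cells had 3 members higher (Isg20, Cmpk2 and Dtx3l) and 0 lower, beside 5.49% of all genes higher and 1.86% lower. The perinate-tagged arrays are those of the first comparison, so the results are not independent. Isg20 differed by 0.98 ± 0.24 (adjusted p = 0.0241), Cmpk2 by 1.24 ± 0.35 (adjusted p = 0.0468) and Dtx3l by 0.64 ± 0.15 (adjusted p = 0.0195). Without perinate-tagged replicate 2 these were 1.38 ± 0.15, 1.85 ± 0.17 and 0.83 ± 0.14. The median over members was 0.64, against 0.02 over all genes tested. Without perinate-tagged replicate 2 the count was 28, beside 4.66% of all genes. With replicates 4 and 5 of both groups alone it was 29, beside 5.63%. Both choices were made with the data known. Leaving out perinate-tagged replicate 4 or 5, or untagged replicate 5 of perinate-treated mice, brought it to 0, beside 2.46% to 2.90% of all genes higher, and leaving out untagged replicate 4 brought it to 1, beside 3.30%. The groups did not overlap for 3 members (Dtx3l, Gbp3 and Isg20), all higher, beside 19.7% of all genes higher and 12.3% lower. Of the 41 other interferon-induced genes 8 were higher and 0 lower, led by Ifitm3 (1.22 ± 0.23), Epsti1 (1.02 ± 0.18) and Ube2l6 (1.01 ± 0.28). Of the 19 receptors and upstream factors 2 were higher, Ddx58 (0.79 ± 0.21) and Irf8 (0.75 ± 0.18), and Ifng was not called. The B-cell marker Cd79b was higher here too (0.81 ± 0.14), while neither Cd74 nor Cd68 was called. Without perinate-tagged replicate 2 the counts were 17 of the 40 other interferon-induced genes that passed the filter in more than 1 spleen group and 2 of 19 upstream factors, and neither Cd74 nor Cd68 was called.

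Replicates that share a number can also be set side by side, as values with no test. Perinate-tagged replicate 4 exceeded untagged replicate 4 of perinate-treated mice in 33 of 33 members, by a median of 1.02 and by up to 2.41 (Oas2), against 0.06 over all genes. Perinate-tagged replicate 5 exceeded its untagged counterpart in 32 of 33, by a median of 1.05 and by up to 2.16 (Oasl2), the exception being Iigp1 at -0.20. Number 2 is the only one shared by the tagged groups. There perinate-tagged replicate 2 exceeded adult-tagged replicate 2 in 4 of 33 members, with a median of -0.27. Over all genes it did so in 53.2%, with a median of 0.02. The adult-tagged group has no replicate numbered 4 or 5. What the numbers mark is not given in the labels, so number and group cannot be told apart for most of the first comparison.

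Some members also differed by number among untagged cells. Ifit3 had 8.82, 10.43 and 10.26 on untagged replicates 3, 4 and 5 of perinate-treated mice and 8.82, 10.11 and 10.18 on those of adult-treated mice. In both groups replicate 3 was well below the others and inside the 8.66 to 9.02 of the adult-tagged arrays. Replicate 3 was the lowest array of both untagged groups in 10 of 33 members (Dhx58, Eif2ak2, Gbp3, Ifih1, Ifit1, Ifit3, Mx1, Rsad2, Rtp4 and Xaf1), and in 20.5% of all genes. Cxcl10 showed the same order with a wider gap, at 7.92, 10.65 and 10.28 in perinate-treated and 8.41, 11.07 and 10.62 in adult-treated mice. Perinate-tagged replicates 4 and 5 still exceeded untagged replicates 4 and 5 for Ifit3, with 11.66 and 11.56, but not for Cxcl10, with 9.77 and 10.02. Ctla4, an inhibitory receptor of Tregs, was also low on replicate 3, with 10.46, 11.81 and 11.86 in perinate-treated and 10.44, 11.63 and 11.94 in adult-treated mice. The part of the number in any member's difference was not tested.

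The 2 untagged groups were compared next, which tests the timing of tamoxifen outside the tagged cells. Perinate-treated against adult-treated, 0 of 33 members were called, and 0.00% of all genes. In limma 0 members had an unadjusted p under 0.05 and the lowest adjusted p over all genes was 0.995. That fit draws its spread from all 4 spleen groups, the perinate-tagged one included, so a difference can be missed. With these 2 groups alone 0 of 9891 genes were called. A limma fit of these 2 groups with the replicate number as a block called 49 of 9891 genes, 37 higher and 12 lower, with a lowest adjusted p of 9.6e-08, and 0 members. The median over members was 0.04. The difference of Mx1 was -0.21 ± 0.62 and that of Isg20 -0.03 ± 0.24. The test of the tagged difference against the untagged difference called 0 members, beside 4.29% of all genes higher and 0.599% lower, with 9 members at an unadjusted p under 0.05 and a median of 0.64. Without perinate-tagged replicate 2 it called 26 members, beside 4.65% of all genes. Among the other interferon-induced genes 3 passed it with all arrays, Ifitm3 (1.47 ± 0.33, adjusted p = 0.0165), Trafd1 (1.21 ± 0.29, adjusted p = 0.0257) and Epsti1 (1.00 ± 0.25, adjusted p = 0.0318), and without perinate-tagged replicate 2 the count was 10 of the 40 that passed the filter in more than 1 spleen group.

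Adult-tagged and untagged Tregs of adult-treated mice did not differ detectably in these genes. Of 33 members 0 were called, with 0 at an unadjusted p under 0.05 in limma, beside 0.271% of all genes lower and 0.00% higher. The median over members was -0.06. For Mx1 the adult-tagged cells had 6.02, 6.43 and 6.41 and the untagged cells 6.85, 7.41 and 7.76, without overlap, and the difference of -1.06 ± 0.62 had an adjusted p of 0.40. The groups did not overlap for 5 members that were higher and 6 that were lower, beside 6.70% and 10.3% of all genes.

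In the thymus the question was whether Tregs of 4-day-old and 5-week-old mice differ in the same genes where they arise. Perinate thymic Tregs had less transcript of 5 members (Iigp1, Rsad2, Ifit1, Gbp3 and Bst2) and more of 0, beside 5.84% of all 10650 genes lower and 18.5% higher. Iigp1 passed the filter through the adult group alone, so its direction was fixed, and of the remaining 32 members 4 were lower. The GTPases held 2 of the 5, Iigp1 and Gbp3. Iigp1 had 7.05, 6.95 and 6.98 in perinate and 8.26, 8.18 and 8.24 in adult thymus. Its perinate mean of 6.99 was just under the filter. The difference of -1.23 ± 0.11 (0.425-fold) is therefore given as a value and not as a test. Gbp3 had 8.39, 8.49 and 8.71 in perinate and 9.22, 8.76 and 9.12 in adult thymus (-0.51 ± 0.16, adjusted p = 0.0489). Its groups did not overlap, though adult replicate 2 came close to perinate replicate 3. Irgm1 did not pass, with 10.14, 10.14 and 10.09 in perinate and 10.24, 9.59 and 10.31 in adult thymus (0.08 ± 0.19, adjusted p = 0.76).

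Rsad2 had 7.36, 7.46 and 7.48 in perinate and 8.57, 8.05 and 8.76 in adult thymus (-1.03 ± 0.18, adjusted p = 0.00776). Ifit1 had 10.13, 10.18 and 10.33 in perinate and 10.74, 10.83 and 10.79 in adult thymus (-0.58 ± 0.11, adjusted p = 0.0106). Bst2 had 8.55, 8.49 and 8.54 in perinate and 8.91, 8.83 and 8.92 in adult thymus (-0.36 ± 0.10, adjusted p = 0.0426). In these 3 effectors every perinate array was below every adult array. The neighbour of Rsad2, Cmpk2, had 8.11, 8.22 and 8.32 in perinate and 8.60, 7.75 and 8.47 in adult thymus, with the groups overlapping through adult replicate 2.

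Over all 33 members the median thymic difference was 0.03, against 0.17 over all genes tested. The median of the members was -0.20 with quantile normalization and 0.15 with median centring, so its sign depends on the scaling. That of all genes was -0.0007 and 0.30 there, so the members' median lay below that of all genes under each scaling. This gap was not tested. Rsad2 and Ifit1 passed the test as lower under all 3 scalings. Gbp3 (-0.39, adjusted p = 0.15) and Bst2 (-0.24, adjusted p = 0.19) did not pass in limma with median centring. Quantile normalization also moved the calls over all genes to 1216 higher and 1062 lower, against 1967 and 622 without it. The groups did not overlap for 9 members that were higher, beside 36.9% of all genes, and for 10 that were lower, beside 16.7%. Adult thymus replicate 2 had the narrowest spread of values of all arrays, an interquartile range of 2.08 against 2.49 to 3.12 on the other 17. Without it 8 members were lower and 3 higher (Dtx3l, Eif2ak2 and Ifih1), beside 13.8% of all genes lower and 26.7% higher. With Iigp1 set aside 7 were lower. Without adult replicate 1 there were 3 lower and 5 higher, beside 11.1% and 29.1% of all genes, so neither count was above the share of all genes. Without any of the remaining 4 arrays 1 to 3 were lower and 0 higher, beside 1.88% to 2.40% of all genes lower and 4.76% to 7.08% higher.

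The remaining members named above were not called in the thymus with all 6 arrays. Effectors among them had 8.01, 7.87 and 7.77 in perinate and 7.61, 7.32 and 7.77 in adult thymus for Mx1, and 8.00, 7.68 and 7.79 in perinate and 7.54, 7.02 and 7.45 in adult thymus for Eif2ak2. Isg20 had 10.13, 10.29 and 10.56 in perinate and 10.53, 10.95 and 10.55 in adult thymus. Perinate arrays were thus the higher ones for Eif2ak2 and mostly the lower ones for Isg20. Oas3 had 8.11, 7.97 and 8.16 in perinate and 8.21, 7.75 and 8.05 in adult thymus, and Samd9l had 10.13, 10.23 and 10.23 in perinate and 10.39, 10.59 and 10.44 in adult thymus. Ifit3 had 9.72, 9.77 and 10.02 in perinate and 10.27, 9.68 and 10.10 in adult thymus.

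The 4 transcription factors and feedback genes were low on adult thymus replicate 2. Irf7 had 10.01, 10.04 and 10.15 in perinate and 9.97, 9.19 and 9.74 in adult thymus, and Usp18 had 10.39, 10.40 and 10.59 in perinate and 10.82, 9.90 and 10.59 in adult thymus. Stat2 had 10.04, 9.92 and 9.83 in perinate and 9.79, 8.82 and 9.61 in adult thymus, and Irf9 had 10.63, 10.53 and 10.61 in perinate and 10.79, 10.28 and 10.60 in adult thymus. The perinate arrays lay close together in each of the 4. Sensors had 9.46, 9.37 and 9.35 in perinate and 9.09, 8.98 and 9.16 in adult thymus for Ifih1, and 9.63, 9.49 and 9.50 in perinate and 9.38, 8.37 and 9.12 in adult thymus for Dhx58. Zbp1 had 10.49, 10.49 and 10.43 in perinate and 10.66, 10.52 and 10.73 in adult thymus, and Trim30a had 11.74, 11.61 and 11.47 in perinate and 11.38, 11.53 and 11.60 in adult thymus. Parp9 had 9.88, 9.79 and 9.84 in perinate and 9.69, 9.57 and 9.63 in adult thymus, and Dtx3l had 10.86, 10.88 and 10.75 in perinate and 10.65, 10.28 and 10.37 in adult thymus. For Ifih1, Dhx58, Parp9 and Dtx3l every perinate array was the higher one, for Zbp1 every one the lower, without an adjusted p under 0.05.

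**Figure D4:**
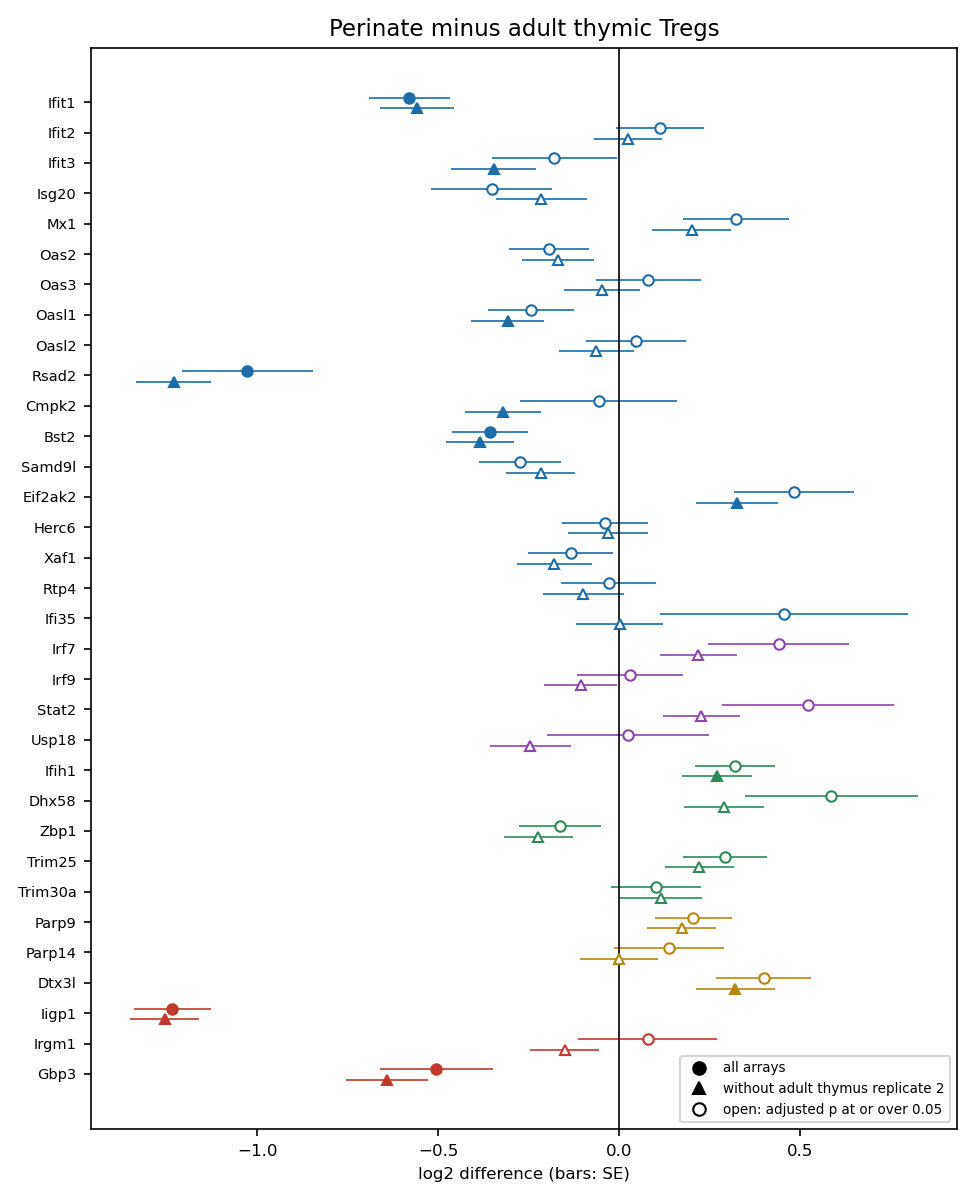
Points give the perinate minus adult thymic log2 difference of each member with its SE, as circles for all arrays and triangles without adult thymus replicate 2, filled where adjusted p was under 0.05. Colours mark the roles, from the top effectors (blue), transcription factors and feedback (purple), sensing (green), ADP-ribosylation (ochre) and GTPases (red). Iigp1 (-1.23) and Rsad2 (-1.03) lie furthest to the left, and Iigp1 passed the filter through adult thymus alone, so its direction was fixed.

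Genes of the pathway were called in both directions in the thymus, those higher less often than all genes. Ifng had 6.18, 6.44 and 6.33 in perinate and 7.65, 6.99 and 7.73 in adult thymus. Its perinate arrays lay at or next to the background level, and it passed the filter through the adult group alone, so its direction was fixed and no difference is given. Of 19 receptors, kinases and upstream factors tested 2 were lower, the sensor Tlr7 (-0.64 ± 0.11, adjusted p = 0.0067) and the receptor chain Ifngr1 (-0.44 ± 0.11, adjusted p = 0.0278), and 1 was higher, the receptor chain Ifnar1 (0.60 ± 0.15, adjusted p = 0.0283). Of all genes 5.84% were lower and 18.5% higher. Of 42 other interferon-induced genes tested 6 were lower and 3 higher. Without adult thymus replicate 2 these were 8 and 8, beside 13.8% of all genes lower and 26.7% higher. The counts of higher genes thus lay below the share of all genes. Cxcl10 had 7.57, 7.63 and 8.05 in perinate and 9.45, 9.12 and 9.63 in adult thymus (-1.65 ± 0.18, adjusted p = 0.00119). Ifitm3 (-0.96 ± 0.19, adjusted p = 0.0104) and Oas1a (-0.85 ± 0.18, adjusted p = 0.0139) were lower as well, as were Slfn8 (-0.70 ± 0.11), Gbp5 (-0.65 ± 0.11) and Slfn1 (-0.46 ± 0.14). Higher were the antigen-processing genes Psmb9 (0.98 ± 0.15, adjusted p = 0.00441) and Tap1 (0.81 ± 0.20, adjusted p = 0.0257), and Ms4a4c (0.78 ± 0.17, adjusted p = 0.0155). Beside these, Cd8a, a marker of thymocytes and CD8 T cells, was lower by 0.61 (9.75 ± 0.05 in perinate and 10.36 ± 0.04 in adult thymus, SD). The summed level of its 6-gene list was 1675 to 1756 in perinate and 2191 to 2427 in adult thymus, and the part of such cells was not tested.

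The difference between the tagged groups of the spleen was set against that between the thymic groups in a fit of all 18 arrays. Here 5 members passed, all with a more positive difference in spleen, beside 3.89% of 10889 genes in that direction and 2.56% in the other. Rsad2 had the widest gap (2.73 ± 0.71, adjusted p = 0.0259), at 1.70 in spleen and -1.03 in thymus. Isg20 followed (1.50 ± 0.33, adjusted p = 0.00931), then Bst2 (1.12 ± 0.30, adjusted p = 0.0306), Iigp1 (1.02 ± 0.23, adjusted p = 0.0118) and Gbp3 (0.79 ± 0.22, adjusted p = 0.0392). Iigp1 and Gbp3, unlike the other 3, had no called difference in spleen. The median over members was 0.79, against -0.05 over all genes. Without perinate-tagged replicate 2 the count was 24, all in that direction, beside 3.63% of all genes and 1.60% in the other. Without perinate-tagged replicate 4 or 5, adult-tagged replicate 1 or 3, perinate thymus replicate 1 or 2 or adult thymus replicate 3 the count was 2.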

How the data were processed

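RNA of sorted Tregs was measured on 18 arrays. The deposited table holds 1 intensity per probe set and array on a linear scale, which the authors made with Affymetrix Power Tools and RMA, a method that subtracts background, evens out arrays and summarises probes, per the submitters' processing notes. Versions and a genome build are not given in the sources used here. Probe-level files were not used here, and the number of arrays limits the precision.

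Intensities were turned into log2 values with no pseudocount and no further normalization. Of 24922 rows, 21425 carried 1 gene symbol, 1399 several and 2098 none. Rows with 1 symbol were kept, with the brightest per gene. A gene was tested if its mean reached the median of all deposited values, 132.7, in at least 1 group of the fit. Groups were compared with limma 3.58.1 (lmFit and eBayes) in R 4.3.3, in 1 fit of the 12 spleen arrays, 1 of the 6 thymic arrays, and 1 of all 18 for spleen against thymus. P-values were adjusted by Benjamini-Hochberg over all genes of the fit, and called under 0.05. The fits were first tested on simulated data.

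Values on every array were given for members past the threshold, up to 12 a comparison by size, for the measured GTPases, for the brightest member of each role, and for Irf7, Irf9, Stat2 and Usp18. Ifit3 was given as well, chosen after its values were seen, since it varied most. Members and lists were chosen with earlier results of these data known. Deviations of same-numbered untagged arrays had correlations over genes of 0.62, 0.13 and 0.45 for numbers 3, 4 and 5. Number 4 of one group with number 5 of the other had 0.28 and 0.29, above the matched number 4. The data thus set number 3 apart but do not pair number 4. The number was taken to pair untagged arrays from the data, not from the labels. With the number as a block 0 members were called there, as without it. Sequences came from RefSeq, GRCm38.p6.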

Additional observations from a re-analysis of the deposited data

Results flagged for a closer look

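Several genes had a difference that was not the same under the same contrast in different cells, by a test of that difference in limma. The perinate-tagged minus adult-tagged difference was more positive than that between the 2 untagged groups for Ifitm3 (1.47, adjusted p = 0.0165), Trafd1 (1.21, adjusted p = 0.0257) and Epsti1 (1.00, adjusted p = 0.0318), and for 0 members with all arrays.

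Against the difference between perinate and adult thymus, the difference between the tagged groups of the spleen was more positive for 5 members: Rsad2 (2.73), Isg20 (1.50), Bst2 (1.12), Iigp1 (1.02) and Gbp3 (0.79). Genes outside the members had the same direction. Cxcl10 (4.01, adjusted p = 0.00628) was higher in perinate-tagged spleen cells and lower in perinate thymus, as was Ifitm3 (2.19, adjusted p = 0.000353). Ifng passed too (2.18, adjusted p = 0.000742), but lay at or next to the background level on the perinate thymic arrays. It passed the filter of the thymic fit through the adult group alone, so its direction in thymus was fixed and is not read as a result. Ube2l6 (1.62, adjusted p = 0.015), Gbp5 (0.69, adjusted p = 0.041) and Myd88 (0.63, adjusted p = 0.0342) passed the test as well, Myd88 not without perinate-tagged replicate 2 (adjusted p = 0.0667). Spleen and thymus also differ in sex, sorter and age, which cannot be told apart from tissue. Groups of 3 arrays are too small for a test of single stray arrays, so perinate-tagged replicate 2 is given by its values in the text.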

How the results depend on the processing

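Counts of members are given with the share of all genes called in the same direction. The 13 members higher in perinate-tagged than adult-tagged cells (16.0% of all genes) became 5 with quantile normalization (10.2%), 6 with no filter (6.81%), 7 with a trended prior (16.5%), 30 with array weights (41.1%), 0 with the interquartile range as a covariate (2.95%) and 1 to 28 with 1 array left out (7.60% to 15.8%). For the tagged against the untagged difference, 0 (4.29%) became 11 with array weights (8.10%), 1 with all 18 arrays in 1 fit (4.20%) and 0 to 26 with 1 array left out (2.44% to 5.35%). The 3 members higher in perinate-tagged than untagged cells (5.49%) became 30 with array weights (22.5%), 6 with all 18 arrays (5.35%), 1 with only the 2 groups (6.76%), 29 with replicates 4 and 5 alone (5.63%) and 0 to 28 with 1 array left out (2.46% to 6.52%). For adult-tagged against untagged cells, 0 became 1 lower with only the 2 groups (1.11%), and stayed 0 with any 1 array left out (0.00% to 5.44% lower). The 5 lower thymic members (5.84%) became 8 with quantile normalization (10.2%), 3 with median centring (2.91%), 3 with no filter (3.54%), 3 with a trended prior (5.92%) and 10 with the interquartile range as a covariate (13.1%). With all 18 arrays 3 thymic members were called, 2 lower (8.33%) and 1 higher (25.3%), and with 1 array left out 1 to 11 were called in either direction (6.64% to 40.5%). For spleen against thymus, 5 (3.89%) became 3 with median centring (2.76%), 31 with array weights (25.2%), 8 with the interquartile range as a covariate (7.51%) and 2 to 24 with 1 array left out (2.62% to 5.58%). With that covariate Ifi35 (-0.57), Usp18 (-0.59) and Irgm1 (-0.40) turned to lower in perinate thymus, each with an adjusted p under 0.05. The cause of these changes was not tested.

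Outside the untagged cells, arrays share only a number. With the number as a block, 0 members were called between the tagged groups (5.57% of all genes higher), 19 higher between perinate-tagged and untagged cells (6.68%), 4 in the thymus, 3 lower and 1 higher (22.8% in either direction), and 0 between spleen and thymus (2.60%).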
